A study of Mus musculus with 6 samples.

Results

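Complex I, the NADH:ubiquinone oxidoreductase of mitochondria, was followed here through its nuclear genes in a mouse liver line and a line derived from it that carries DNAJ-PKAc. Genes were taken by symbol: every row of the deposited count table that begins with Nduf and had at least 10 counts over the 6 libraries, which gave 45 of 24054 rows. They fall into 7 core subunits, 29 supernumerary subunits, 7 assembly factors and 2 further rows, Ndufa4 and its paralog Ndufa4l2. Of the 45, 44 passed the filter on low counts and were tested, and Ndufa4l2 did not. The choice rests on names and on summed counts over all libraries, not on any difference between the groups.

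The WT group was the parental line TIBx, of genotype WT, and the other group was TIBxDNAJ-PKAc, of genotype DNAJ-PKAc, with 3 libraries of total RNA each, replicates A to C. The labelled cell type of both was liver BNL 1ME A.7R.1, a chemically transformed mouse liver line. DNAJ-PKAc joins the first part of a DNAJB1 heat shock co-chaperone to the catalytic subunit of protein kinase A and defines fibrolamellar carcinoma, a liver tumour whose cells are known to be packed with mitochondria. Both lines grew in the same DMEM with serum, added glutamine, pyruvate and nonessential amino acids. On how the kinase fusion was introduced, and on whether the derived line is a single clone, nothing is stated in the labels. The title of the study names metabolic rewiring and a dependency on glutamine, which is the setting in which respiratory chain genes are compared here. A single line stood for each genotype, so an effect of the fusion and any other difference between the lines cannot be told apart. The labels do not say that replicates were separate cultures, and p-values then reflect only how much these 3 libraries per group vary, possibly for technical reasons.

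Library totals ran from 8095549 to 9969590 expected counts. WT B and DNAJ-PKAc C stood apart from the others of their group: their log2 CPM (counts scaled to library size) correlated with the other libraries of the group at 0.957 to 0.958 and at 0.911 to 0.914, against 0.987 for WT A with C and 0.993 for DNAJ-PKAc A with B. The ribosomal precursor Rn45s took 2.66% of the counts of WT B and 0.912% to 1.05% elsewhere, and 15 cell cycle genes had a median log2 level of -1.63 against the WT mean in DNAJ-PKAc C, where A and B stood at 1.87 and 1.89. Of 10 hepatocyte markers 9 had no count in any library, among them Alb, Ttr and Hnf4a, and Afp was the exception, so the labelled liver origin was not visible in hepatocyte transcripts. Markers of leukocytes summed to at most 5.19 CPM in any library, with Ptprc at 0, whereas 6 mesenchymal markers summed to between 15010 and 24610 CPM. Most of the mesenchymal sum was Vim, at 11560 to 14220 CPM, and Col1a2, at 3256 to 11140 CPM. Des was under 1 CPM in every library, and Acta2 was at 7.18 to 10.5 CPM in WT and 34.7 to 56.7 CPM in DNAJ-PKAc. Afp, the 1 hepatocyte marker with counts, was at most 0.329 CPM in WT and between 2.32 and 10.2 CPM in DNAJ-PKAc, and 5 cholangiocyte markers summed to between 20.4 and 56.6 CPM in WT and between 9.38 and 12.4 CPM in DNAJ-PKAc. Nearly all of that sum was Sox9, at 19.7, 56.0 and 21.4 CPM in WT and 10.2, 11.9 and 8.53 CPM in DNAJ-PKAc, with Krt7 under 1 CPM and Krt19, Epcam and Cftr at 0. The part of these markers in the results was not tested.

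Complex I takes electrons from NADH, passes them along a flavin and a chain of iron-sulfur clusters to ubiquinone, and pumps protons across the inner mitochondrial membrane. The core subunits are those shared with the bacterial enzyme. The nuclear ones lie in the matrix arm, where the electrons travel, and the rest of the core is encoded in mitochondrial DNA and was not analysed here. Supernumerary subunits surround and stabilise the core, and assembly factors help to build the enzyme without staying in it.

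No complex I gene passed the test between the lines, yet nearly all lay slightly higher in DNAJ-PKAc. By edgeR's quasi-likelihood test with Benjamini-Hochberg adjustment over all 10975 genes tested, 0 of 44 were higher and 0 were lower at an adjusted p under 0.05, where 1.37% and 2.14% of all genes were, or 3.51% in either direction. limma-voom also called 0, where it called 1.29% of all genes higher and 2.27% lower. DESeq2 called 2 higher, Ndufa12 and Ndufa4, and 0 lower, where it called 3.17% of all genes higher and 5.7% lower. Of these, Ndufa4 is now placed in complex IV. At an unadjusted p under 0.05, 12 of the 44 were higher and 0 lower, or 27.3% higher against 11.8% of all genes, with 9.72% of all genes lower. The fitted difference lay above 0 for 41 of 44, or 93.2%, against 53.9% of all genes. The median log2 difference of the 44 was 0.38, with the middle range from 0.22 to 0.50, beside 0.05 for all genes tested.

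The 44 genes, assembly factors and Ndufa4 included, summed to 3376, 2405 and 3272 CPM in WT libraries A to C. In DNAJ-PKAc libraries A to C they summed to 3936, 4143 and 3869 CPM. These sums did not overlap between the groups, and WT B was the lowest of the 6 libraries. Ndufa4, now placed in complex IV, made up 191, 94.4 and 142 CPM of the WT sums and 321, 376 and 221 CPM of the DNAJ-PKAc sums. In such bulk RNA, fewer cells with a transcript and less of it per cell cannot be told apart. For 23 of the 44 genes, or 52.3%, every DNAJ-PKAc library lay above every WT library, as for 15.8% of all genes tested, and for 0 of the 44 every one lay below, against 13.1% of all. The genes share their libraries, so these counts are not independent observations of the groups.

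**Figure D1:**
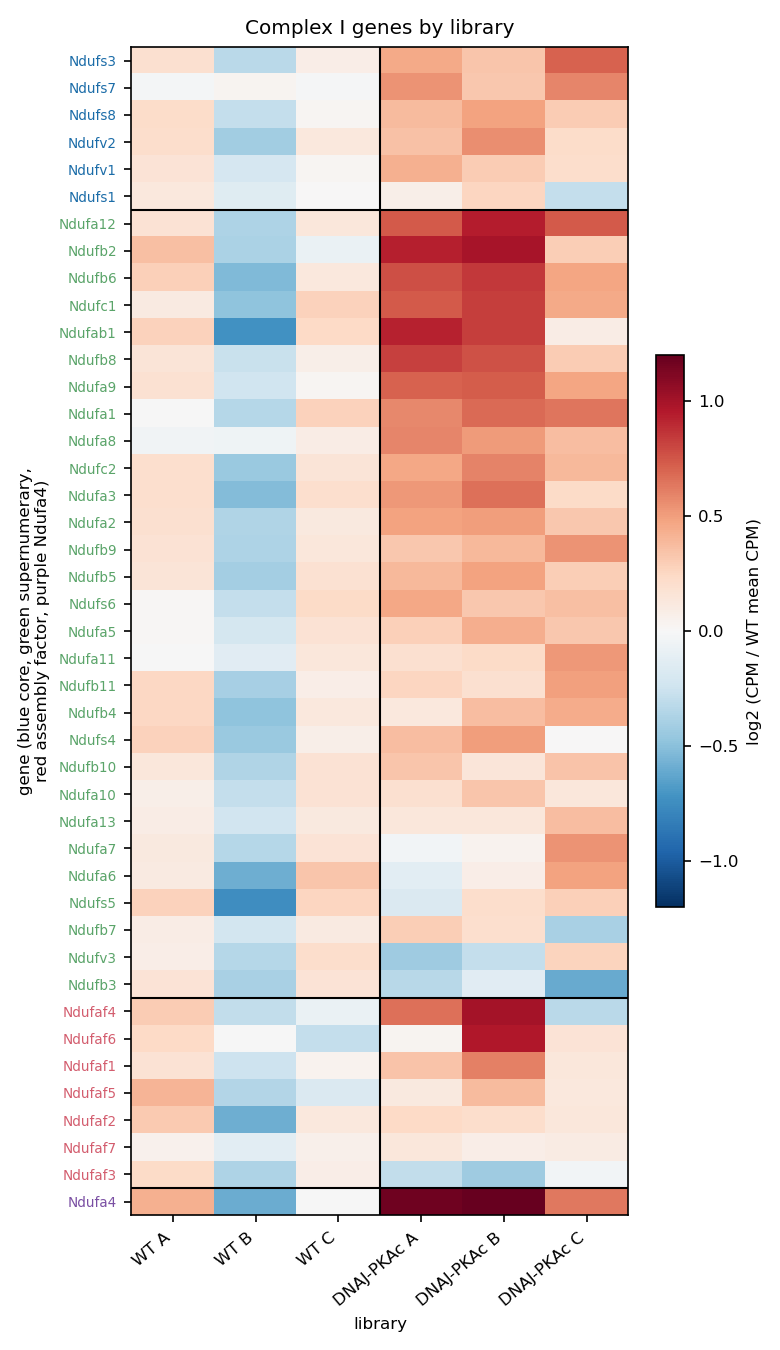
Level of 43 of the 44 tested genes (vertical axis, grouped by class) in each of the 6 libraries (horizontal axis), coloured by log2 of its CPM over the WT mean CPM. The column of WT B is mostly blue, and most genes are red in all 3 DNAJ-PKAc libraries.

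**Figure D2:**
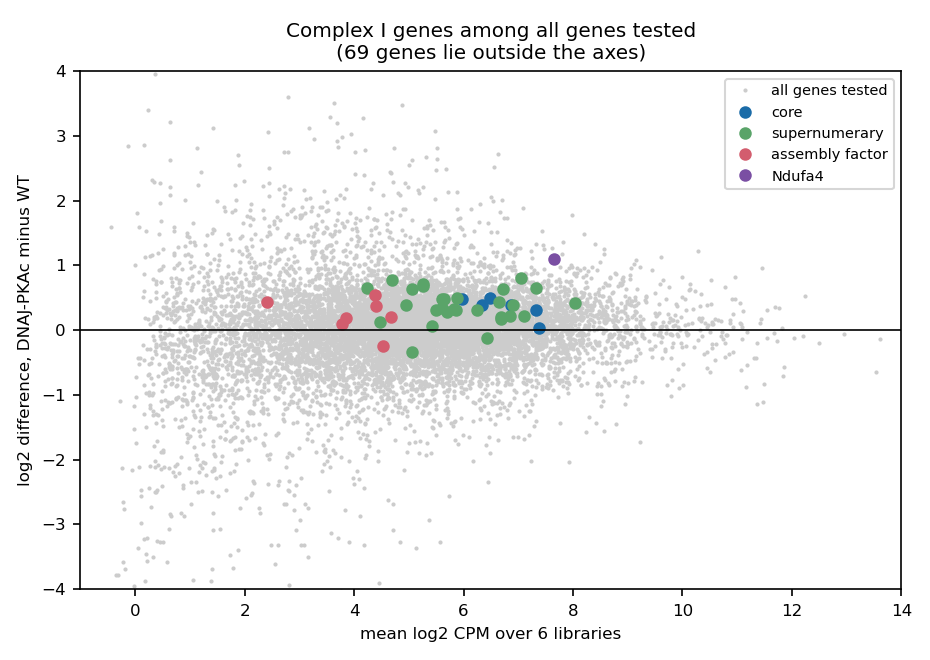
Fitted log2 difference, DNAJ-PKAc minus WT, against the mean log2 CPM over 6 libraries, for all 10975 genes tested (grey) and 43 complex I genes (coloured by class). The complex I genes sit in a narrow band, mostly above 0, inside the cloud of all genes.

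The size of this shift depended on WT B. That library was the lowest of the 6 libraries for 36 of the 44 genes and the lowest WT library for 42. The shares of all genes at these ranks were not counted. Against the mean of WT A and C the log2 level of WT B had a median of -0.48 over the 44 genes, beside -0.02 over all genes tested. It was below that mean for 95.5% of the 44 and 51.1% of all genes. Without WT B the median log2 difference was 0.21 in place of 0.38 over the 44 genes, 36 of 44 lay above 0 against 53.9% of all genes, and 0 were called, against 0.235% of all genes higher. The log2 difference of 34 of the 44 genes moved by over 1.5 times without WT B, in 6 of 7 core, 23 of 29 supernumerary and 5 of 7 assembly genes, and 5 of the 44 turned sign. The count of genes with every DNAJ-PKAc library above every WT library stayed at 23 without WT B, where the share of all genes was 22.9%. That count rests on the highest WT library of each gene. Leaving out WT B, the lowest WT library for 42 of the 44, could hardly change it, so nothing is concluded from the unchanged count. WT B also held the most Malat1, a nuclear RNA, at 10410 CPM of plain totals against 1065 to 4639 CPM in the others. The part of that RNA makeup in the low complex I values was not tested.

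The complex I median of DNAJ-PKAc C was near those of A and B, although single genes differed, while its cell cycle median stood far below theirs. It was 0.34 (log2, against the WT mean), between the WT libraries' highest of 0.19 and the 0.36 and 0.41 of DNAJ-PKAc A and B. Of the 44 genes, 32, 33 and 31 lay above every WT library in A, B and C of DNAJ-PKAc. The matching shares of all genes were not counted for single libraries, so nothing is concluded from these 3 numbers. Leaving DNAJ-PKAc C out gave 9 complex I genes higher and 0 lower, against 14.3% and 11% of all genes: Ndufa12, Ndufa8, Ndufa9, Ndufb2, Ndufb6, Ndufb8 and Ndufc1 among the supernumerary subunits, Ndufaf4, and Ndufa4. The core gave 0 of 7 there. The difference lay above 0 for 40 of 44 genes without DNAJ-PKAc C, against 50.2% of all genes, and 30 of 44 had separate groups, against 32.5%.

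**Figure D3:**
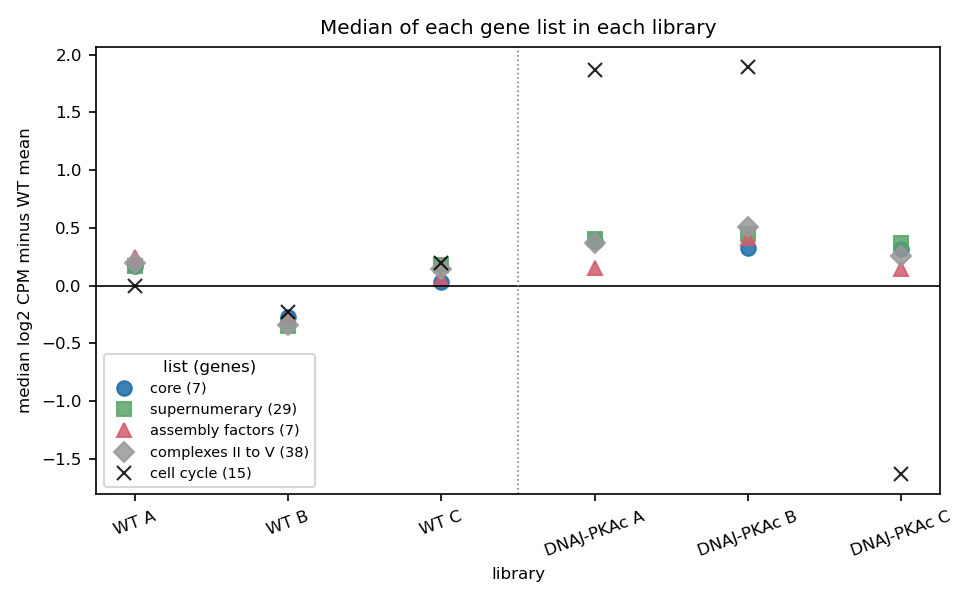
Median log2 CPM minus the WT mean (vertical axis) of 5 gene lists in each of the 6 libraries (horizontal axis), with the number of genes per list in the legend. The complex I classes and complexes II to V stay between 0.14 and 0.51 in all 3 DNAJ-PKAc libraries, while cell cycle genes stand at 1.87, 1.89 and -1.63.

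The short sequences printed next show what the promoters of these genes hold near their starts. Whether they have a part in the differences was not tested. RefSeq windows of GRCm38.p6, from 250 bases before to 50 bases after an annotated start, were matched by symbol for 39 of the 45 genes (41 windows). Ndufs1, Ndufa2, Ndufb9, Ndufaf6 and Ndufa4l2 were among those with no window in that table. Motifs of factors known to act on respiratory chain promoters, and of the cyclic AMP response, were searched on both strands as the letters given with each, and matches to different motifs overlapped in 0 cases. A match is a description of letters and not a shown site of binding.

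AAGATGGC, part of the motif of the factor YY1, was in 7 of 41 complex I windows, or 17.1%, against 4.76% of the windows of genes tested and 2.75% of all windows. In all 7 it lay on the strand of the gene, with its first base 22 to 38 bases after the start base, and its ATG was an annotated start codon in GENCODE M21. The 7 stretches of 30 bases are shown because the match sits at the start of translation in each, with the motif in capitals.
Ndufs7 (chr10:80249455-80249484, plus strand): tgtctgaaggccgaggccAAGATGGCggcg
Ndufs4 (chr13:114388048-114388077, minus strand): ctggcgtttgcctacaggAAGATGGCggcg
Ndufs6 (chr13:73328438-73328467, minus strand): gggtcaagggtcaccggcAAGATGGCggcg
Ndufa3 (chr7:3617377-3617406, plus strand): cttgtcgccgccaagaacAAGATGGCcggg
Ndufa9 (chr6:126849104-126849133, minus strand): cgtgaggcattgtgggagAAGATGGCggcc
Ndufb8 (chr19:44555393-44555422, minus strand): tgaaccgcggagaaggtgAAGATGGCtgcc
Ndufc1 (chr3:51408922-51408951, minus strand): aggcggagcctgcggaacAAGATGGCgccg
These 7 genes gave a median log2 difference of 0.49 and the 32 other genes with a window had 0.32, a description with no test.

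The motif of NRF1, a regulator of nuclear genes for mitochondria, was searched as GCGCA, any base, then GCGC, and was in 10 of 41 windows, or 24.4%, against 10.7% of the windows of genes tested and 4.6% of all windows. Ndufb4 held it 3 times, and its 3 stretches are shown. Those of Ndufa8 and Ndufaf4 are shown too, whose log2 differences of 0.49 and 0.55 were the largest of the 9 genes with this motif. Not shown are Ndufa5, Ndufa6, Ndufa11, Ndufaf5, Ndufs5 and Ndufs6, which ran from 0.12 for Ndufs5 to 0.38 for Ndufs6. Capitals mark the motif, which in Ndufa8 matched on the strand opposite to the one printed.
Ndufb4 (chr16:37654540-37654569, minus strand): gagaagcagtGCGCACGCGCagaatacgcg
Ndufb4 (chr16:37654428-37654457, minus strand): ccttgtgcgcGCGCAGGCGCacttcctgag
Ndufb4 (chr16:37654371-37654400, minus strand): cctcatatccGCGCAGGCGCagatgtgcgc
Ndufa8 (chr2:36049349-36049378, minus strand): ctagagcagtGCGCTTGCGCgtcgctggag
Ndufaf4 (chr4:24897960-24897989, plus strand): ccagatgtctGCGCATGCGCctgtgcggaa
The 9 genes with this motif had a median log2 difference of 0.32, and the 30 others had 0.39. The windows of Ndufa5 overlap and hold the same site, so that site was counted in both among the 10 windows.

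TGACGTCA, the full cyclic AMP response element, which is bound by CREB, a factor that protein kinase A phosphorylates, was in 3 of 41 windows, or 7.32%, against 3.25% of the windows of genes tested and 1.79% of all windows. All 3 are shown, with the element in capitals.
Ndufb2 (chr6:39592540-39592569, plus strand): gtgcgacgcagTGACGTCAcgggccgggac
Ndufa10 (chr1:92473807-92473836, minus strand): acactcagtggTGACGTCAtggcagcgcgc
Ndufa11 (chr17:56717593-56717622, plus strand): tttacctttccTGACGTCAcgggcgtctct
It began 14, 67 and 158 bases before the start in Ndufb2, Ndufa10 and Ndufa11, whose log2 differences were 0.77, 0.22 and 0.32. The median of these 3 genes was 0.32, and the 36 other genes with a window had 0.38, a description with no test. The ETS and GABP motif CCGGAAG was in 12.2% of complex I windows and 18.5% of the windows of genes tested, and the ERR motif CAAGGTCA was in 2.44% and 0.976%.

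All 7 nuclear core subunits had a fitted difference above 0, from 0.03 to 0.51, with a median of 0.38, and 0 passed the test (smallest adjusted p = 0.127, edgeR). At an unadjusted p under 0.05, 2 of the 7 were higher, and DESeq2 called 0. For 5 of the 7 every DNAJ-PKAc library lay above WT, or 71.4% against 15.8% of all genes, and the unadjusted 28.6% stood against 11.8%. The class summed to 892, 687 and 853 CPM over the WT libraries against 976, 992 and 999.7 in DNAJ-PKAc. Without WT B the median was 0.18.

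Ndufs7, which carries the last iron-sulfur cluster before ubiquinone, had 52.3, 54.2 and 52.6 CPM in WT libraries A to C and 77.0, 66.3 and 79.5 in DNAJ-PKAc libraries A to C. The WT libraries were nearly level, WT B included, and all 3 DNAJ-PKAc libraries lay above them. The log2 difference was 0.49 (SE 0.14, edgeR adjusted p = 0.127), and it ran from 0.44 to 0.56 with any 1 library left out. Ndufs3, a neighbouring subunit of the ubiquinone module, measured 86.1, 60.5 and 80.0 CPM in the WT libraries and 103, 95.1 and 123 in those of DNAJ-PKAc. Its groups did not overlap, DNAJ-PKAc C was the highest, and the log2 difference was 0.51 (SE 0.19, adjusted p = 0.198).

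Ndufs8, which holds further iron-sulfur clusters on the way to ubiquinone, had WT levels of 82.0, 57.9 and 71.4 CPM and DNAJ-PKAc levels of 91.5, 98.6 and 87.1. All 3 DNAJ-PKAc libraries lay above WT (log2 0.39, SE 0.17, edgeR adjusted p = 0.243), and the difference was 0.23 without WT B.

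At the tip of the matrix arm, Ndufv1, which binds NADH and the flavin, measured 161, 125 and 146 CPM in the WT libraries and 193, 178 and 167 in those of DNAJ-PKAc. Its partner Ndufv2 had WT levels of 120, 77.7 and 113 CPM and DNAJ-PKAc levels of 132, 152 and 121. Both kept their groups apart by a small margin, with log2 differences of 0.32 (SE 0.16, edgeR adjusted p = 0.285) and 0.38 (SE 0.21, adjusted p = 0.314), which became 0.18 and 0.17 without WT B. Ndufs1, the longest core subunit with several iron-sulfur clusters, had 180, 149 and 166 CPM in WT against 173, 197 and 135 in DNAJ-PKAc. DNAJ-PKAc C was the lowest library of the 6, and the difference of 0.03 (SE 0.19, 95% interval -0.41 to 0.46, adjusted p = 0.939) was -0.014 with RLE factors.

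**Figure D4:**
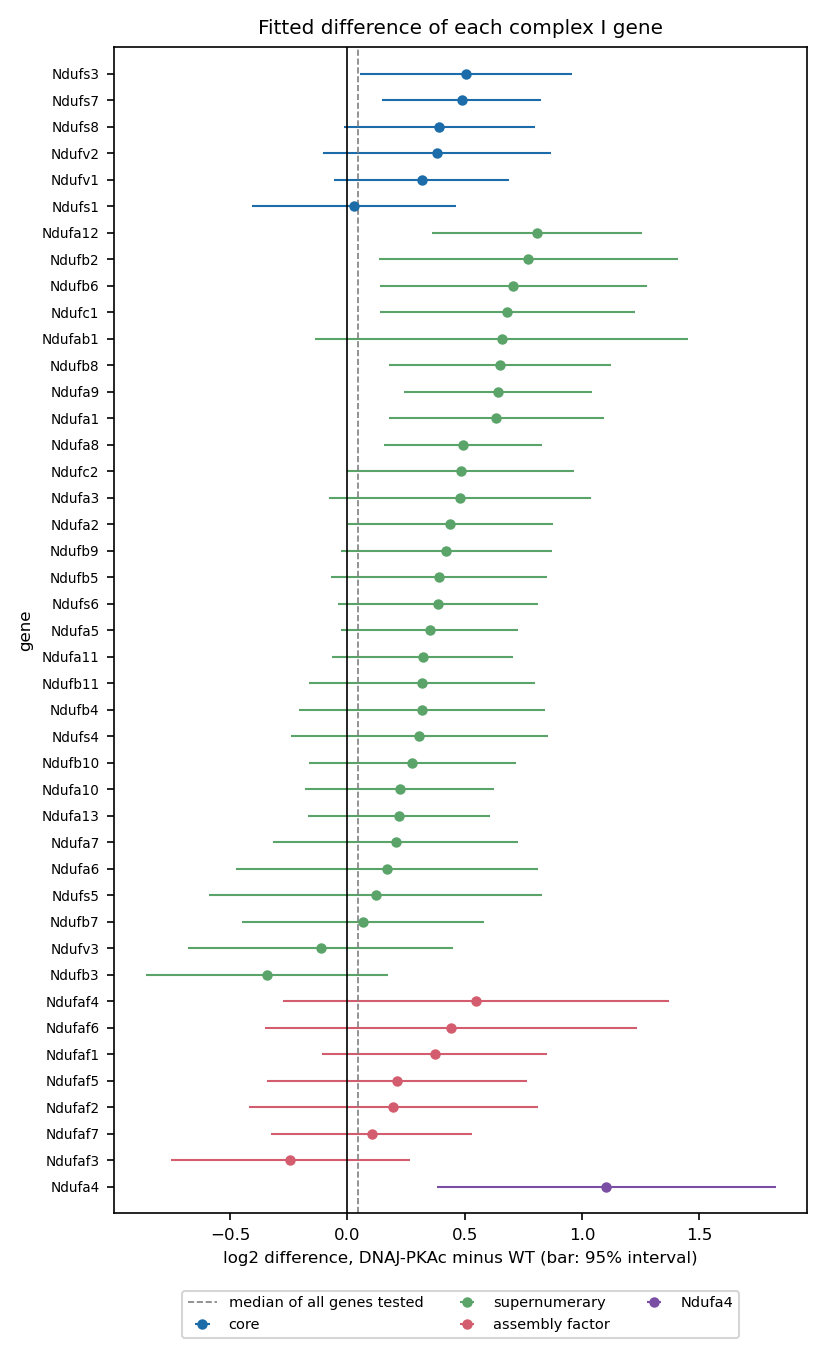
Fitted log2 difference, DNAJ-PKAc minus WT (horizontal axis), of 43 of the 44 tested genes (vertical axis), coloured by class, with 95% intervals that are not adjusted for the number of genes. The points run from -0.34 for Ndufb3 to 1.10 for Ndufa4, and the dashed line marks the median of all genes tested, 0.05.

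The 29 supernumerary subunits spanned a wider range, from -0.34 to 0.81, with a median of 0.38, and 27 of them lay above 0. For 16 of the 29 every DNAJ-PKAc library lay above WT, or 55.2% against 15.8% of all genes, and 0 passed the test (smallest adjusted p = 0.0751, edgeR), with 9 higher at an unadjusted p under 0.05 (31% against 11.8% of all genes) and 1 called higher by DESeq2. Without WT B the median was 0.21. The arms of the enzyme gave similar medians. The 16 core and supernumerary subunits placed in the matrix arm had a median of 0.37, and the 19 placed in the membrane arm had 0.39, with the acyl carrier protein Ndufab1, found in both, left out. The matrix arm summed to between 1229 and 1664 CPM in WT and between 1837 and 1940 CPM in DNAJ-PKAc, and the membrane arm to between 979 and 1363 and between 1572 and 1669 CPM.

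Ndufa12 (chromosome 10, 94198720 to 94221443 in GRCm38, GENCODE M21) had the smallest adjusted p of all complex I genes. It encodes a matrix arm subunit that takes the place of its paralog, the assembly factor Ndufaf2, late in assembly. It had 114, 78.2 and 111 CPM in WT libraries A to C and 168, 194 and 168 in DNAJ-PKAc libraries A to C. The groups stood well apart, and DNAJ-PKAc C was level with A. The fold was 1.75 (log2 0.81, SE 0.19, 95% interval 0.36 to 1.25, edgeR adjusted p = 0.0751, and 0.0153 by DESeq2). With 1 library left out the log2 difference ran from 0.61 to 0.90 and the adjusted p from 0.0222, without DNAJ-PKAc C, to 0.266. Ndufaf2 itself measured 16.8, 8.99 and 14.8 CPM in the WT libraries and 15.9, 15.7 and 14.9 in those of DNAJ-PKAc, with overlapping groups and a log2 difference of 0.20 (SE 0.26, adjusted p = 0.681).

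Ndufa9, at the joint of the arms, had WT levels of 96.5, 72.0 and 86.1 CPM and DNAJ-PKAc levels of 139, 141 and 118. Ndufa8, which faces the intermembrane space, had 48.1, 48.0 and 52.8 CPM in WT against 74.3, 70.6 and 64.2 in DNAJ-PKAc. The groups of both stood apart, and Ndufa8 resembled Ndufs7 in that WT B was level with WT A. The folds were 1.56 for Ndufa9 (log2 0.64, SE 0.17, edgeR adjusted p = 0.100) and 1.41 for Ndufa8 (log2 0.49, SE 0.14, adjusted p = 0.124).

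Ndufa1, a small membrane-arm subunit encoded on the X chromosome, measured 26.6, 21.0 and 32.4 CPM in the WT libraries and 39.9, 42.7 and 41.7 in those of DNAJ-PKAc. The DNAJ-PKAc libraries were close to each other and above all WT libraries (log2 0.64, SE 0.19, edgeR adjusted p = 0.134). Ndufb8, in the distal part of the membrane arm, had WT levels of 143, 107 and 135 CPM and DNAJ-PKAc levels of 227, 218 and 159. Ndufc1, in the membrane arm too, had 32.7, 21.7 and 36.8 CPM in WT against 50.5, 54.1 and 41.7 in DNAJ-PKAc. In both, DNAJ-PKAc C lay between A and B above and WT below (log2 0.65 and 0.68, SE 0.20 and 0.23, adjusted p = 0.137 and 0.165).

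Ndufb2, another membrane-arm subunit and the carrier of the response element nearest to a start, measured 25.6, 15.3 and 18.9 CPM in the WT libraries and 38.1, 39.5 and 24.5 in those of DNAJ-PKAc. DNAJ-PKAc C lay just below WT A, so its groups overlapped despite a fold of 1.71 (log2 0.77, SE 0.27, edgeR adjusted p = 0.175). Ndufb2 overlaps Braf on the opposite strand. Ndufb9, which binds the acyl carrier protein, had WT levels of 259, 178 and 252 CPM and DNAJ-PKAc levels of 288, 302 and 334 (log2 0.42, SE 0.19, adjusted p = 0.250, and log2 0.22 without WT B). Per kilobase of transcript it stood highest of the core and supernumerary genes, at 326 CPM per kilobase in WT and 437 in DNAJ-PKAc, followed by Ndufb8 at 189 and 296.

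Ndufb3 and Ndufv3 were the supernumerary genes with a difference below 0. Ndufb3, a membrane-arm subunit, had 42.0, 28.6 and 42.1 CPM in WT against 29.9, 34.2 and 24.6 in DNAJ-PKAc. The groups overlapped through WT B, and the log2 difference was -0.34 (SE 0.22, edgeR adjusted p = 0.381). Ndufv3, a flavin-module subunit, measured 95.8, 71.4 and 105 CPM in the WT libraries and 67.6, 74.6 and 109 in those of DNAJ-PKAc. Its DNAJ-PKAc libraries spanned the whole WT range (log2 -0.11, SE 0.24, adjusted p = 0.807). With both WT B and DNAJ-PKAc C left out, 15 complex I genes were higher and 4 lower, against 23.9% and 24.5% of all genes. The 4 lower were Ndufb3, Ndufv3, Ndufa6 and the assembly factor Ndufaf3. That choice kept the closest pair of libraries in each group.

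The other supernumerary genes of the matrix arm differed less, and they and those of the next paragraph are described for completeness. Ndufs4, a subunit of the electron input module whose loss causes Leigh syndrome, had WT levels of 84.2, 50.8 and 73.0 CPM and DNAJ-PKAc levels of 89.6, 98.3 and 69.3. DNAJ-PKAc C lay inside the WT range (log2 0.31, SE 0.23, edgeR adjusted p = 0.457). Ndufs6, a zinc-binding subunit that settles late in assembly, had 27.3, 22.2 and 31.6 CPM in WT against 37.2, 33.8 and 34.7 in DNAJ-PKAc, with separate groups (log2 0.38, SE 0.18, adjusted p = 0.264). Both carry the match to AAGATGGC at their start codon, as Ndufs7 and Ndufa9 do.

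Ndufa5, a subunit next to Ndufs3, measured 43.3, 37.0 and 48.4 CPM in the WT libraries and 52.3, 58.2 and 53.6 in those of DNAJ-PKAc. Its groups were separate (log2 0.35, SE 0.16, edgeR adjusted p = 0.254), as were those of Ndufa2, a subunit with a thioredoxin-like fold (log2 0.44, SE 0.19, adjusted p = 0.232). Ndufa6, a partner of the acyl carrier protein, had WT levels of 107, 66.4 and 125 CPM and DNAJ-PKAc levels of 91.1, 106 and 139. Its groups overlapped widely (log2 0.17, SE 0.27, adjusted p = 0.742). The acyl carrier protein Ndufab1 had 18.7, 9.34 and 18.2 CPM in WT against 29.2, 27.4 and 16.5 in DNAJ-PKAc. Here DNAJ-PKAc A and B lay above all other libraries and C below WT A and C (log2 0.66, SE 0.34, adjusted p = 0.296).

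In the membrane arm, Ndufb6 measured 36.9, 21.0 and 33.1 CPM in the WT libraries and 52.0, 54.6 and 42.2 in those of DNAJ-PKAc. Its groups were separate, and among the genes of this arm its difference was exceeded by that of Ndufb2 (log2 0.71, SE 0.24, edgeR adjusted p = 0.167). Ndufc2, which sits beside Ndufc1, had WT levels of 49.2, 31.4 and 47.6 CPM and DNAJ-PKAc levels of 58.9, 64.3 and 55.8, again with separate groups (log2 0.48, SE 0.21, adjusted p = 0.233). Ndufa3 had 48.0, 29.2 and 48.0 CPM in WT against 59.8, 66.1 and 49.0 in DNAJ-PKAc. Its C library came within 1 CPM of WT A and C (log2 0.48, SE 0.24, adjusted p = 0.280).

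Ndufb4, the holder of 3 NRF1 matches, measured 48.8, 29.4 and 44.8 CPM in the WT libraries and 44.6, 52.9 and 55.9 in those of DNAJ-PKAc. Its groups overlapped, as DNAJ-PKAc A lay below WT A and C (log2 0.32, SE 0.22, edgeR adjusted p = 0.421). Ndufa11, which holds the response element farthest from its start, had WT levels of 50.6, 46.1 and 55.6 CPM and DNAJ-PKAc levels of 58.0, 59.5 and 72.9. Ndufa10, the remaining holder of that element, had 113, 87.8 and 121 CPM in WT against 122, 135 and 118 in DNAJ-PKAc. The groups were separate for Ndufa11 and overlapped for Ndufa10 (SE 0.16 and 0.17, adjusted p = 0.294 and 0.463).

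Ndufa13, also known as GRIM-19, measured 136, 109 and 139 CPM in the WT libraries and 141, 141 and 166 in those of DNAJ-PKAc. Ndufb5 had WT levels of 117, 79.6 and 120 CPM and DNAJ-PKAc levels of 139, 148 and 130. Both had separate groups, by a small margin in Ndufa13 (log2 0.22 and 0.39, SE 0.17 and 0.20, edgeR adjusted p = 0.451 and 0.286). Ndufb10 and Ndufb11, of the distal membrane arm, had overlapping groups and differences of 0.28 and 0.32 (log2, SE 0.19 and 0.21, adjusted p = 0.407 and 0.384).

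Single genes parted widely in DNAJ-PKAc C, which was the lowest of its group for 23 of the 44 and the highest of all 6 libraries for 13. The shares of all genes at these ranks were not counted. The genes named here were chosen after their values were seen. Against the mean of DNAJ-PKAc A and B, the log2 level of DNAJ-PKAc C had a median of -0.12 over the 44 genes, beside 0.04 over all genes. It was below that mean for 29 of the 44, or 65.9%, against 47.4% of all genes. Among the 44 it ranged from -1.15 for Ndufaf4 to 0.62 for Ndufv3. Ndufa7 stood 0.54 above and Ndufa6 0.51 above, while Ndufab1, Ndufb2, Ndufa4 and Ndufb7 were at -0.77, -0.66, -0.65 and -0.63. Ndufa7 was at 94.3, 99.1 and 140 CPM in A, B and C of DNAJ-PKAc and at 105, 76.3 and 108 CPM in WT. Ndufb7 was at 51.8, 48.7 and 32.3 CPM in DNAJ-PKAc and at 45.0, 36.4 and 45.5 CPM in WT. Over all 6 libraries neither passed the test (log2 0.21 and 0.07, edgeR adjusted p = 0.606 and 0.879). Like genes in general, subunits of the same enzyme thus lay on both sides of the A and B level in this single library. It has no replicate of its own kind.

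The 7 assembly factors had a smaller median, 0.21, and 6 of 7 lay above 0. Every DNAJ-PKAc library lay above WT for 1 of 7, Ndufaf7, a share of 14.3% near the 15.8% of all genes, and 0 passed the test (smallest adjusted p = 0.318, edgeR), as 0 did at an unadjusted p under 0.05 and by DESeq2. The class summed to 140, 93.8 and 116 CPM over the WT libraries against 133, 152 and 119 in DNAJ-PKAc, which overlapped. Without WT B the median was 0.02, and without WT A it was 0.47, so single WT libraries set the size of this value. Whether assembly factors differ from subunits was not tested. Their levels in WT ran from 4.11 CPM per kilobase for Ndufaf6 to 20.6 for Ndufaf5, where core and supernumerary genes other than Ndufab1 began at 40.8 CPM per kilobase, for Ndufs4. Ndufab1, at 4.44, and the assembly factor Ndufaf4, at 4.92, were scaled by transcript models of 3479 and 3632 bases that may be too long, so their levels per length are uncertain.

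Ndufaf1, part of an assembly complex for the membrane arm, had WT levels of 20.8, 15.6 and 19.1 CPM and DNAJ-PKAc levels of 23.5, 28.2 and 20.4. WT A lay above DNAJ-PKAc C (log2 0.37, SE 0.20, edgeR adjusted p = 0.318). Ndufaf3 and Ndufaf4 act together early, around the ubiquinone module. Ndufaf3 had 29.5, 19.5 and 26.6 CPM in WT against 20.5, 18.8 and 24.6 in DNAJ-PKAc, the single assembly factor below 0 (log2 -0.24, SE 0.22, adjusted p = 0.531). Ndufaf4 measured 22.1, 14.6 and 16.9 CPM in the WT libraries and 28.3, 35.8 and 14.3 in those of DNAJ-PKAc. DNAJ-PKAc C was its lowest library and A and B its highest, and the log2 difference of 0.55 (SE 0.35, adjusted p = 0.382) became 0.84 without DNAJ-PKAc C (adjusted p = 0.0329). Ndufaf3 overlaps Impdh2 on the opposite strand.

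Ndufaf5, which hydroxylates Ndufs7, had WT levels of 31.8, 18.8 and 21.3 CPM and DNAJ-PKAc levels of 26.0, 31.1 and 26.1 (log2 0.21, SE 0.24, edgeR adjusted p = 0.617). Its difference was 0.02 without WT B and 0.47 without WT A. Ndufaf6 was the least abundant of the tested genes, at 5.26, 4.44 and 3.64 CPM in the WT group and 4.55, 8.65 and 4.996 with DNAJ-PKAc (log2 0.44, SE 0.34, adjusted p = 0.459), and its difference was 0.10 without DNAJ-PKAc B. Ndufaf7, a methyltransferase of early assembly, had 13.5, 11.9 and 13.6 CPM in WT against 14.3, 13.7 and 13.9 in DNAJ-PKAc. Its groups were separate by a hair, with a log2 difference of 0.10 (SE 0.18, 95% interval -0.33 to 0.53, adjusted p = 0.761). The row 1810043H04Rik, which RefSeq names as an older symbol of Ndufaf8, the partner of Ndufaf5, lies outside the rule and was at log2 -0.08 (adjusted p = 0.843).

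Ndufa4 (chromosome 6, 11900292 to 11907497 in GRCm38, GENCODE M21) had the largest difference among the 44. It was long counted as a complex I subunit and is now placed in complex IV, cytochrome c oxidase. It had 191, 94.4 and 142 CPM in WT libraries A to C and 321, 376 and 221 in DNAJ-PKAc libraries A to C. Every DNAJ-PKAc library lay above every WT library, although both groups were spread widely. The fold was 2.15 (log2 1.10, SE 0.31, 95% interval 0.38 to 1.82, edgeR adjusted p = 0.114, and 0.0264 by DESeq2). With 1 library left out the log2 difference ran from 0.84, without WT B, to 1.37 and the adjusted p from 0.0206, without DNAJ-PKAc C, to 0.341. Per kilobase it stood at 234 CPM in WT and 502 in DNAJ-PKAc. Its paralog Ndufa4l2, a gene known to respond to low oxygen, had 0, 4 and 3 counts in WT A, B and C, and 0, 2 and 11 counts in A, B and C of DNAJ-PKAc. At this depth no difference could be read from it, and it overlaps Shmt2 on the opposite strand.

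**Figure D5:**
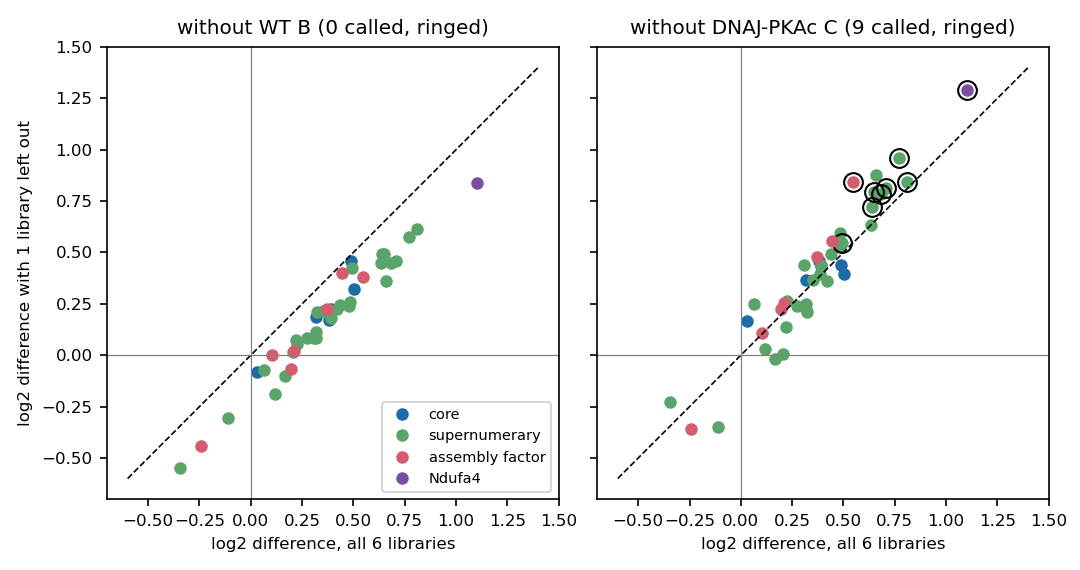
Fitted log2 difference with all 6 libraries (horizontal axis) against the difference with 1 library left out (vertical axis), without WT B on the left and without DNAJ-PKAc C on the right, for 43 of the 44 genes. Without WT B nearly all points lie below the dashed line of equal values and 0 are called, and without DNAJ-PKAc C 9 genes are called (ringed).

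Assembly factors of complex I that do not carry the Nduf name were listed apart, and 12 were tested. Of these, 11 lay above 0 with a median of 0.38, or 91.7% against 53.9% of all genes, and 0 passed edgeR's test. At an unadjusted p under 0.05, 2 were higher, or 16.7% against 11.8% of all genes. Aifm1, which supports import of respiratory chain subunits, measured 28.5, 29.2 and 26.9 CPM in the WT libraries and 52.7, 53.7 and 34.2 in those of DNAJ-PKAc (log2 0.73, SE 0.21, edgeR adjusted p = 0.119). Its groups stood apart, with WT B level with the other WT libraries. Tmem186 had WT levels of 6.69, 6.65 and 6.85 CPM and DNAJ-PKAc levels of 11.7, 9.26 and 9.63 (log2 0.60, SE 0.22, adjusted p = 0.182). Tmem70 was the exception, at log2 -0.50 (adjusted p = 0.281).

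For comparison, 38 nuclear genes of complexes II to V gave a median of 0.37 (log2 difference), and 36 of 38 lay above 0 with 0 past edgeR's test, 14 higher at an unadjusted p under 0.05 (36.8% against 11.8% of all genes) and 18 with every DNAJ-PKAc library above WT (47.4% against 15.8%). The smallest adjusted p-values there belonged to Atp5b, an ATP synthase subunit (log2 0.82, edgeR adjusted p = 0.0948), and Uqcr11, of complex III (log2 0.76, adjusted p = 0.106). The complex I genes were thus not set apart from the rest of the respiratory chain by these values, and the difference between the lists was not tested.

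Some of these counts could be shared with other genes. For the strand setting used in counting nothing is given in the sources used here, and 15 of the 45 genes overlap another gene of the table. Ndufs5, an accessory subunit facing the intermembrane space, was the 1 gene of the 45 whose expected counts were not whole, in all 6 libraries, and its values (26.1, 12.8 and 25.8 CPM in WT, 19.2, 24.95 and 26.3 CPM in DNAJ-PKAc) are uncertain.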

How the data were processed

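Total RNA of 6 libraries was used, 3 per group, grouped by genotype and replicate letter. Values were the authors' deposited expected counts, not normalized, with a row for each gene symbol, per the file headers. The submitters' processing notes list STAR 2.5.2b and RSEM 1.3.0 with mm10 as the build, and give no roles. For annotation, trimming and strand setting, nothing is given in the sources used here. In each library 1.52% to 1.68% of the values had a fractional part.

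Expected counts were rounded, filtered with filterByExpr (minimum count 10), scaled by TMM and fitted over all genes with edgeR 4.0.16 (quasi-likelihood, robust, group as the single term) in R 4.3.3. Tests were 2-sided, with Benjamini-Hochberg adjustment over 10975 genes and a threshold of 0.05. CPM values are TMM-scaled unless said otherwise, 1 CPM being 8.10 to 10.1 counts, and the precision is limited by 3 libraries per group. Levels against the WT mean use log2 CPM with a prior count of 2. The SE is the log2 difference over the root of F. Levels per kilobase use the shortest principal coding transcript of GENCODE M21 with a RefSeq match, and positions are GRCm38, the assembly of mm10.

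Alternatives were RLE and upper-quartile factors, other count filters, DESeq2 1.42.0, limma-voom (limma 3.58.1), the replicate letter as a block, 3 abundant noncoding RNAs left out of library sizes, and libraries left out. Named genes were all core, assembly and remaining genes, and the supernumerary genes of smallest adjusted p (6), largest and smallest difference and highest level per length (2 each), and the 2 of smallest adjusted p in each other list. Other genes were named after their values were seen. The values of 1 gene are not reported here, and it stays in the counts and medians. The members, lists and alternatives were chosen with earlier results of these data known.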

Additional observations from a re-analysis of the deposited data

How the results depend on the processing

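No complex I gene was called higher or lower with RLE or upper-quartile factors, either other count filter, limma-voom, the 3 noncoding RNAs left out, or the replicate block. DESeq2 called 2 higher, leaving out 1 library gave 0 to 9 higher and 0 lower, and without both WT B and DNAJ-PKAc C there were 15 higher and 4 lower. For these counts and for the changes that follow, the cause was not tested. The replicate letters gave correlations of deviations of 0.21, -0.20 and 0.03 for A, B and C, and not every library correlated best with its own letter. With 3 libraries per group, of which WT B and DNAJ-PKAc C stood apart, these correlations cannot show whether libraries of a letter shared a culture or a batch. With the block the medians were 0.40 for core, 0.40 for supernumerary and 0.24 for assembly genes.

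With 1 library left out, the medians ran from 0.18 to 0.48 for core, from 0.21 to 0.49 for supernumerary and from 0.02 to 0.47 for assembly genes. Genes above 0 numbered 36 to 42 and genes with separate groups 23 to 30, and 35 and 30 without both WT B and DNAJ-PKAc C. The shares of all genes with separate groups, DNAJ-PKAc above, were 17.7% to 32.5% with 1 library left out and 40.8% without both, where 49.7% of all genes lay above 0. These alternatives for the latter counts were added after the data were seen. The median of all genes was 0.05 with TMM and -0.02 with upper-quartile factors, which left 39 of 44 above 0. Signs turned for genes near 0: Ndufs1 with RLE (-0.014), upper-quartile factors (-0.044) and DESeq2 (-0.014), and from -0.10 to 0.17 with 1 library left out. Ndufaf2 ran from -0.068 to 0.38 and Ndufv3 from -0.35 to 0.023 with 1 library left out. Without WT B and DNAJ-PKAc C together, Ndufaf2 was at -0.043. Signs also turned for supernumerary genes, among them Ndufs5 (-0.189), Ndufa6 (-0.099) and Ndufb7 (-0.072) without WT B, Ndufb7 with upper-quartile factors (-0.01), and Ndufa7 (-0.188) and Ndufa13 (-0.013) without both libraries. At 3 libraries per group the 95% interval, not adjusted for the number of genes, lay wholly above 0 for 12 of 44 genes. These are the same 12 genes that were higher at an unadjusted p under 0.05 by edgeR, or 27.3% against 11.8% of all genes, and not a further result.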

Other observations

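Regulators of mitochondrial gene expression, a list of 12 genes, had 0 past edgeR's test and a median log2 difference of 0.15. At an unadjusted p under 0.05, 3 were higher and 1 lower, where 11.8% and 9.72% of all genes were. Those above 0 numbered 7, or 58.3%, near the 53.9% of all genes. Tfam, which packages and transcribes mitochondrial DNA, had 38.7, 30.8 and 38.5 CPM in WT against 61.8, 66.8 and 45.3 in DNAJ-PKAc, with groups that did not overlap (log2 0.69, SE 0.20, edgeR adjusted p = 0.124). Esrra, the estrogen-related receptor alpha, measured 42.2, 33.7 and 41.5 CPM in the WT libraries and 64.6, 61.4 and 47.8 in those of DNAJ-PKAc, again without overlap (log2 0.57, adjusted p = 0.153). The coactivator gene Ppargc1b lay the other way, at 4.93, 11.3 and 6.62 CPM in the WT group and 2.28, 3.95 and 3.78 with DNAJ-PKAc (log2 -1.195, adjusted p = 0.162), and all 3 DNAJ-PKAc libraries were below all WT libraries. The coactivator genes Ppargc1a and Pprc1 had overlapping groups, at log2 0.64 and -0.47 (edgeR adjusted p = 0.384 and 0.548). Nrf1, whose motif was searched in the promoters, was at log2 0.34 (adjusted p = 0.347), Gabpa at 0.16 (0.557) and Yy1 at 0.14 (0.597). Gabpb1, also among the 3 higher at an unadjusted p under 0.05, had separate groups (log2 0.39, edgeR adjusted p = 0.21). WT B, where complex I was lowest, had the highest Pprc1 of the 6 libraries, at 79.4 CPM against 26.1 to 35.8 CPM. Pprc1 was picked from the 12 after its values were seen, and a link to the low complex I values was not tested.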
